A study of Mus musculus with 18 samples.

Results

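The nuclear-encoded subunits of oxidative phosphorylation were followed in mouse bone marrow derived macrophages that lacked or carried p110gamma. Genes were taken by symbol, as every gene whose symbol starts with Nduf and a letter a, b, c, s or v before a digit, is Sdha, Sdhb, Sdhc or Sdhd, or starts with Uqcr, with Cox and a digit from 4 to 8, or with Atp5. This gave 81 of the 16474 genes measured. Complex I held 36 of them, complex II 4, complex III 8, complex IV 15 and complex V 18. The symbol rule also took in Atp5c1-ps, a pseudogene whose reads may be shared with Atp5c1, and Atp5s and Atp5sl, which are not subunits of the core enzyme. Ndufa4 is counted with complex I by its symbol, although its protein was later assigned to complex IV. Subunits that mitochondrial DNA encodes were not analysed here.

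Mice were C57BL/6 and 8 weeks old, and the genotypes were wild type (WT) and p110g-/-, labelled as lacking the catalytic subunit of phosphoinositide 3-kinase gamma, which Pik3cg encodes. Marrow was cultured for 6 days with 50 ng/ml M-CSF, the macrophage growth factor, which was present at 20 ng/ml in every later condition. Control cells stayed in M-CSF alone for 24 h. Another set received lipopolysaccharide (LPS, 100 ng/ml) together with interferon gamma (IFNg) for 24 h, and the last received 20 ng/ml interleukin 4 (IL-4) for 48 h, so that IL-4 cells differed from M-CSF cells in time as well as in cytokine. Each of the 6 combinations of genotype and stimulus had 3 RNA sequencing libraries, numbered 1 to 3, which makes 18 libraries. Separate mice or dishes behind the 3 libraries are not stated in the labels, so p-values measure the spread between libraries, which may be technical.

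Oxidative phosphorylation moves electrons from NADH through complex I, or from succinate through complex II, to ubiquinone, then through complex III and cytochrome c to complex IV, which reduces oxygen. The proton gradient that complexes I, III and IV build drives ATP synthesis by complex V. In macrophages, IL-4 activation is known for sustained mitochondrial respiration and IFNg with LPS for a shift towards glycolysis and for nitric oxide and itaconate, which act on respiratory enzymes.

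Libraries held 40.1 to 69.6 M (1e6) reads, and signal in this text is a read count divided by 1 factor per library. A count of 0 allows an expected count of up to 3 reads, a signal of 2.15 to 4.74, and such limits cover counting error only. Pik3cg signal in libraries 1, 2 and 3 was 5307.5, 5330.3 and 4993.5 in WT and 1887.5, 2045.8 and 1965.8 in p110g-/- cells in M-CSF, and 3068.2, 2952.9 and 3280.5 against 955.6, 1083.3 and 964.8 in IL-4, so p110g-/- libraries were all lower in both. In IFNg/LPS it was 3559.5, 2309 and 2604.2 in WT and 3691.4, 1410.5 and 2036.7 in p110g-/- cells. The library labelled p110g-/- IFNg/LPS 1 was above all WT IFNg/LPS libraries and goes against its label in that gene, which bears on every genotype difference in IFNg/LPS given here. Of 10 macrophage markers 9 were in the table, with none at a median of 0 over the 18 libraries. Their summed signal was 886341.8 to 1049267 in WT M-CSF, 652224.7 to 713229.2 in WT IFNg/LPS and 502068.9 to 554355.3 in WT IL-4 libraries, and 934127.3 to 967826.4, 595059.3 to 695040.8 and 450920.9 to 535016.2 in p110g-/- libraries, so it was highest in M-CSF and lowest in IL-4. The 8 dendritic cell markers summed to 9578 to 27161.9 in WT M-CSF and 115411.4 to 121732.5 in WT IL-4 libraries (20808.3 to 38061.6 and 125904 to 134796.5 in p110g-/- cells), and the 7 osteoclast markers to 34004.1 to 65317.5 and 109964.2 to 120218.7 in WT. No marker of these 3 lists had a median of 0 over the 18 libraries, and single markers were not checked within groups.

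Promoters are shown for 6 genes whose responses are described here, to set genes that fell with IFNg/LPS (Atp5g2, Ndufb4, Ndufb11 and Sdha) beside genes that rose (Sdhd and, on the authors' scaling, Atp5b). Each line gives the 250 bases before the RefSeq start site on build GRCm38.p6, 5′ to 3′ on the gene's strand. Capitals mark matches to GCGCANGCG (the core of NRF1 sites), CCGGAAG (the core of ETS factor sites, such as those of GABP) and AANATGGCG (the core of YY1 sites), searched on both strands. A palindromic NRF1 match, as in Atp5g2, is found on both strands at overlapping positions. No match stood in the 250 bases of Ndufs8, Ndufa6, Uqcrc1 and Cox7a2l, which fell in WT, or of Cox5a and Ndufs4, which rose. Their promoters are not shown.
Atp5g2 (chr15:102671048-102671297, minus strand): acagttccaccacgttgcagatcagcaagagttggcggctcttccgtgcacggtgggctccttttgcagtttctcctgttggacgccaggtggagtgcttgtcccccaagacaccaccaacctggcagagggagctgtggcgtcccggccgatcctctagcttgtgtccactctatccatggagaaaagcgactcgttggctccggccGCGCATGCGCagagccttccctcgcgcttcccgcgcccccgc
Ndufb4 (chr16:37654369-37654618, minus strand): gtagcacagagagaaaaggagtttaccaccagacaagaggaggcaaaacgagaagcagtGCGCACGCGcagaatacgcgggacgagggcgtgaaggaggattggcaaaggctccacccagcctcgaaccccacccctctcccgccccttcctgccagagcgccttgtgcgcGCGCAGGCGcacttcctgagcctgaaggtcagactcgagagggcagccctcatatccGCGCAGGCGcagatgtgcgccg
Ndufb11 (chrX:20617620-20617869, minus strand): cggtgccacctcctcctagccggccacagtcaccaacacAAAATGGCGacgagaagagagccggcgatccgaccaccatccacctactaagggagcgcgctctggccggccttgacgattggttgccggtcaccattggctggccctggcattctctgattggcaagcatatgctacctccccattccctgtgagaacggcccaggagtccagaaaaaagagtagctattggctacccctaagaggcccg
Sdha (chr13:74350241-74350490, minus strand): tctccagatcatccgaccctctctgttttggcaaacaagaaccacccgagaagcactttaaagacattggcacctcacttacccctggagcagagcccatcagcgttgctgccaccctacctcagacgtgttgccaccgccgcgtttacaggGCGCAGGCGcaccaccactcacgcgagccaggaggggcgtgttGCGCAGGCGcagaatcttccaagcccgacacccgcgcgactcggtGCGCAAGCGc
Sdhd (chr9:50603850-50604099, minus strand): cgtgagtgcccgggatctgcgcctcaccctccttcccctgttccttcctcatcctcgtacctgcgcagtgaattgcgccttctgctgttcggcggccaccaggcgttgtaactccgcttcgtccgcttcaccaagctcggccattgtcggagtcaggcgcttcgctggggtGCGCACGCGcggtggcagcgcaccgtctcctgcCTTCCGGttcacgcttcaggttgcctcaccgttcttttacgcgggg
Atp5b (chr10:128083057-128083306, plus strand): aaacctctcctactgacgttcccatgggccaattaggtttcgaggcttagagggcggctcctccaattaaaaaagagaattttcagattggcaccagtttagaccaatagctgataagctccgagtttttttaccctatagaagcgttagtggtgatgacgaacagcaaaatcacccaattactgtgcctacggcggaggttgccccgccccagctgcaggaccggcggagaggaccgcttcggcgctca

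RefSeq promoter entries matched 67 of the 81 genes, and the search covered the 300 bases from 250 before to 50 after the start. An NRF1 match was present in 20 of the 67 (29.9%), against 13.9% of the 11494 tested genes with an entry and 7.03% of all 27025 genes in the promoter table. ETS matches stood in 16 (23.9%, against 18.5% and 9.93%) and YY1 matches in 11 (16.4%, against 5.39% and 2.76%). At least 1 of the 3 occurred in 39 of the 67 (58.2%, against 32.4% and 17.2%), by complex in 18 of 32 (I), 3 of 3 (II), 3 of 5 (III), 3 of 11 (IV, 27.3%) and 12 of 16 (V, 75%). Genes that rose and genes that fell with IFNg/LPS in WT carried any match in 9 of 14 and 16 of 27 promoters. These are letter matches in a short window, and no site was measured.

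In M-CSF the summed signal of the subunit genes, 81 of the 16474 genes measured, was 0.557, 0.581 and 0.571% of all signal in the WT libraries. It was 0.522, 0.548 and 0.552% in the p110g-/- libraries. Per kilobase of exon, from GENCODE M21 gene models that may differ from those the authors counted on, median WT signal was 1519.9 in complex I, 3827.8 in complex II, 3457.3 in complex III, 2594.9 in complex IV and 4198.5 in complex V. Signal per kilobase was not computed over all genes, so these medians compare the complexes only with each other. Within the complex IV pairs given here 1 isoform predominated. This did not hold for every family. In complex V, WT M-CSF signal was 5361.2, 5568.9 and 5299.8 for Atp5g2 and 5300.6, 6071.2 and 5644.1 for Atp5g3. Cox4i1, the common isoform of the complex IV subunit that binds ATP, had a WT M-CSF signal per kilobase of 14407 ± 285 (mean ± SD, n = 3, as elsewhere), whereas Cox4i2, its hypoxia-linked isoform, had 2.33 ± 2.42. Cox6a1 stood at 7348 ± 475 and its muscle isoform Cox6a2 at 45.5 ± 14.8, Cox6b1 at 7921 ± 283 and Cox6b2, which is best known from testis, at 15.4 ± 1.99, and Cox7a2 at 3989 ± 99.8 and the muscle isoform Cox7a1 at 59.1 ± 8.92. Of the 81 genes, 80 passed the filter on low values (a signal of at least 10 in at least 3 libraries), and Cox4i2 did not.

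**Figure D1:**
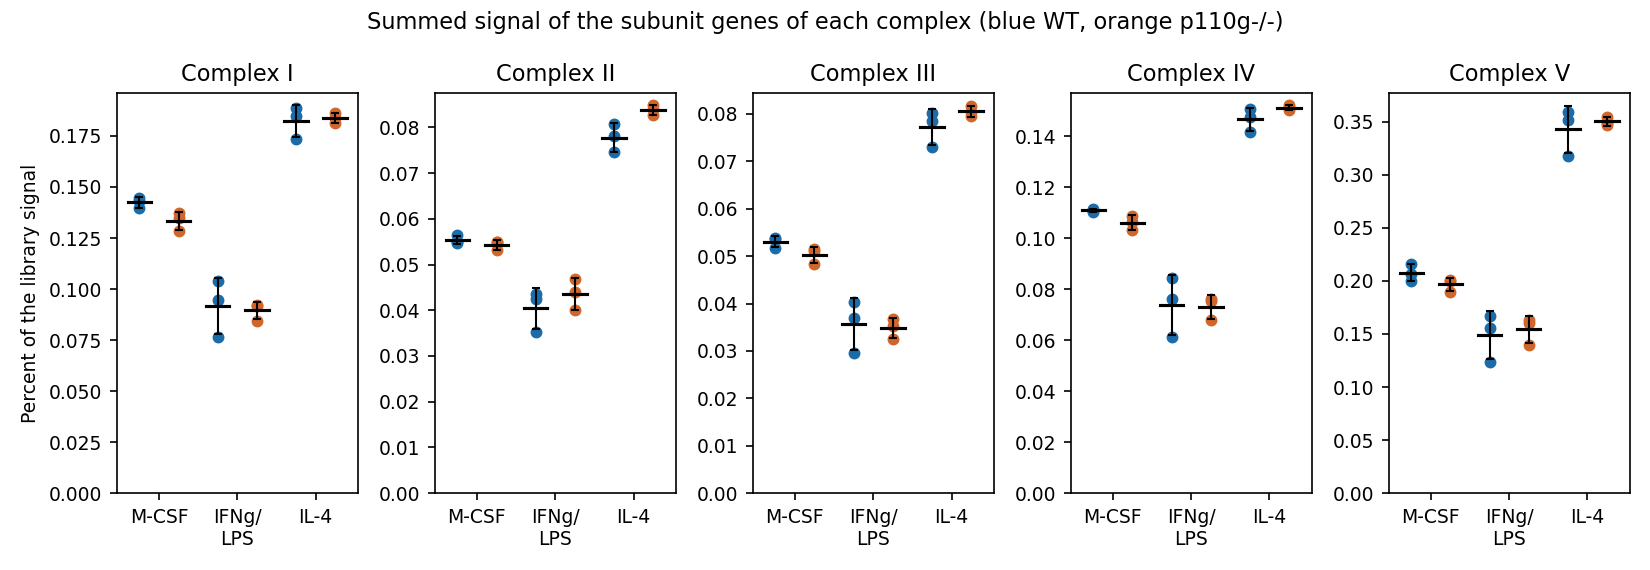
Summed signal of the genes of each complex as a percent of the signal of the library (vertical axes, starting at 0), by stimulus, with 1 point per library, a bar at the mean and whiskers of 1 SD. In every complex the 6 IL-4 libraries lie above the 6 M-CSF libraries, which lie above the 6 IFNg/LPS libraries; the last order holds for shares of the library total, and on the authors' scaling the mean WT sum in IFNg/LPS was above M-CSF in complexes II (26460.5 against 25544.6) and V (97286 against 95856).

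Most subunit genes of all 5 complexes were higher with IL-4, in both genotypes. In WT macrophages 66 of 80 tested members were higher than in M-CSF and 1 was lower, where 22.9% of all 15627 tested genes were higher and 21.1% lower (limma, Benjamini-Hochberg adjusted p under 0.05). In p110g-/- macrophages 71 were higher, against 22.7% of all genes, and none was lower, against 21.2%. None was lower there at an unadjusted p under 0.05 either, nor by edgeR or DESeq2. Median log2 fold changes in WT were 0.44 in complex I, 0.56 in II, 0.67 in III, 0.62 in IV and 0.65 in V, and in p110g-/- cells 0.55 in complex I, 0.64 in II, 0.75 in III, 0.73 in IV and 0.67 in V, beside 0.0031 and -0.0099 over all tested genes. All 66 genes that rose in WT also rose in p110g-/- cells, an overlap that was not counted over all tested genes. Because the cells were measured in bulk, a change in the mix of cells and a change in RNA per cell cannot be told apart, and the 48 h and 24 h cultures cannot be compared free of time. The summed dendritic cell and osteoclast markers were higher and the summed macrophage markers lower in IL-4 than in M-CSF libraries, without overlap, and the part of these in the result was not tested.

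Complex I, the NADH dehydrogenase, had 29 of 36 genes higher in WT and 32 in p110g-/- cells, and none lower. The 7 core subunits, which carry the flavin and the iron-sulfur clusters, were higher in both genotypes (median 0.48 and 0.60), as were 22 and 25 of the 29 accessory subunits. Ndufs1, the largest core subunit, held 3127.3, 3337.5 and 3181.4 in the WT M-CSF libraries and 4726.8, 5077.1 and 4988.2 in the WT IL-4 libraries. In p110g-/- cells it held 3118.6, 3451.2 and 3249.5 in M-CSF and 5377.2, 5280.1 and 5086.6 with the stimulus. Every IL-4 library was thus above every M-CSF library of its genotype, with log2 fold changes of 0.62 (SE 0.054, adjusted p = 4.8e-07) in WT and 0.68 (SE 0.054, adjusted p = 1.3e-07) in p110g-/- cells. Ndufc1, a small membrane subunit, rose by 0.72 in WT, and Ndufv1, the flavin subunit, by 0.50 on the log2 scale. The smallest changes in the complex were those of Ndufa7, Ndufa6 and Ndufb3, at 0.025, 0.075 and 0.10 in WT, which did not pass and are named after their values were seen.

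Complexes II and III, which feed and oxidise ubiquinol, rose in every subunit gene measured here, 4 of 4 and 8 of 8, in both genotypes. Sdha, the flavoprotein that oxidises succinate, went from 10210.1, 10469.4 and 10390.7 to 15740.5, 16270.6 and 16252.8 in WT and from 10311, 10688 and 10813.5 to 18181.9, 18251.2 and 18498.4 in p110g-/- libraries. These are log2 fold changes of 0.64 (SE 0.063, adjusted p = 1.5e-06) and 0.79 (SE 0.063, adjusted p = 1.4e-07), without overlap. Sdhd, a membrane anchor of the same complex, rose by 0.65 and 0.83. In complex III, Uqcr10 went from 1531.8, 1639 and 1686.5 to 2888.1, 3013.4 and 3018.2 in WT, which is 0.88 (SE 0.093, adjusted p = 3e-06) on the log2 scale. Uqcrfs1, the Rieske iron-sulfur protein, rose by 0.78 and 0.89 in WT and p110g-/- cells, and the core protein Uqcrc1 by 0.73 and 0.91. Cyc1, the cytochrome c1 gene that the symbol rule leaves out, rose by 0.99 and 1.01.

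In complex IV, cytochrome c oxidase, 10 of 14 tested genes were higher in WT and 11 in p110g-/- cells. Cox7b signal was 2435.2, 2830.7 and 2526.5 in WT M-CSF and 5332.3, 5489.3 and 5576.1 in WT IL-4, which is 2597 ± 207 against 5466 ± 124. Its log2 fold change was 1.08 (SE 0.074, adjusted p = 4e-08) in WT and 1.10 (SE 0.074, adjusted p = 2.3e-08) in p110g-/- cells, and the IL-4 libraries lay above all M-CSF libraries of their genotype. Cox8a and Cox6c, small subunits of the same enzyme, rose by 0.90 and 0.66 in WT. Cox7a1 was low in every group, with 26.1, 34.1 and 34.6 in WT M-CSF and 61.3, 68 and 67.9 in WT IL-4 libraries, and 14.9, 15.3 and 28.5 in M-CSF and 57.4, 82.4 and 88.8 with the stimulus in p110g-/- libraries. It rose in both genotypes, by 1.04 (SE 0.27, adjusted p = 0.006) and 1.95 (SE 0.27, adjusted p = 3.9e-05) on the log2 scale. Cox7a2l, which takes part in supercomplexes of complexes III and IV, was at 12432 ± 549 in M-CSF and 11524 ± 86.5 in IL-4 in WT (log2 fold change -0.11, SE 0.11, adjusted p = 0.45), and did not pass in p110g-/- cells (0.034, SE 0.11, adjusted p = 0.83).

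Complex V, the ATP synthase, had 15 of 18 genes higher in WT and 16 in p110g-/- cells. All 5 genes of the catalytic F1 head and all 7 of the stalk and the remaining Fo genes rose in both genotypes. Atp5b, the catalytic beta subunit, had a signal of 19661.2, 22464.2 and 21191.7 in WT M-CSF and 42007.2, 47627.4 and 47287.3 in WT IL-4 libraries, and of 18875.9, 20024.2 and 20620.0 in M-CSF and 46505.5, 44209.9 and 45657.1 with the stimulus in the p110g-/- libraries. That is a rise of 1.11 (SE 0.090, adjusted p = 2e-07) in WT and 1.20 (SE 0.090, adjusted p = 7.3e-08) in p110g-/- cells, with no overlap. Atp5a1, the alpha subunit beside it, rose by 0.87 and 0.95. The c ring that turns in the membrane is encoded by 3 genes for 1 mature protein, and they differed: Atp5g3 rose by 1.12 (SE 0.14, adjusted p = 1.5e-05) in WT, Atp5g1 by 0.78 (SE 0.15, adjusted p = 7e-04), and Atp5g2 had 0.35 (SE 0.16, adjusted p = 0.093), which did not pass. The gene that was lower in WT was Atp5sl (-0.29, SE 0.098, adjusted p = 0.024), one of the genes outside the core enzyme, and the other, Atp5s, had -0.38 (SE 0.19, adjusted p = 0.12).

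**Figure D2:**
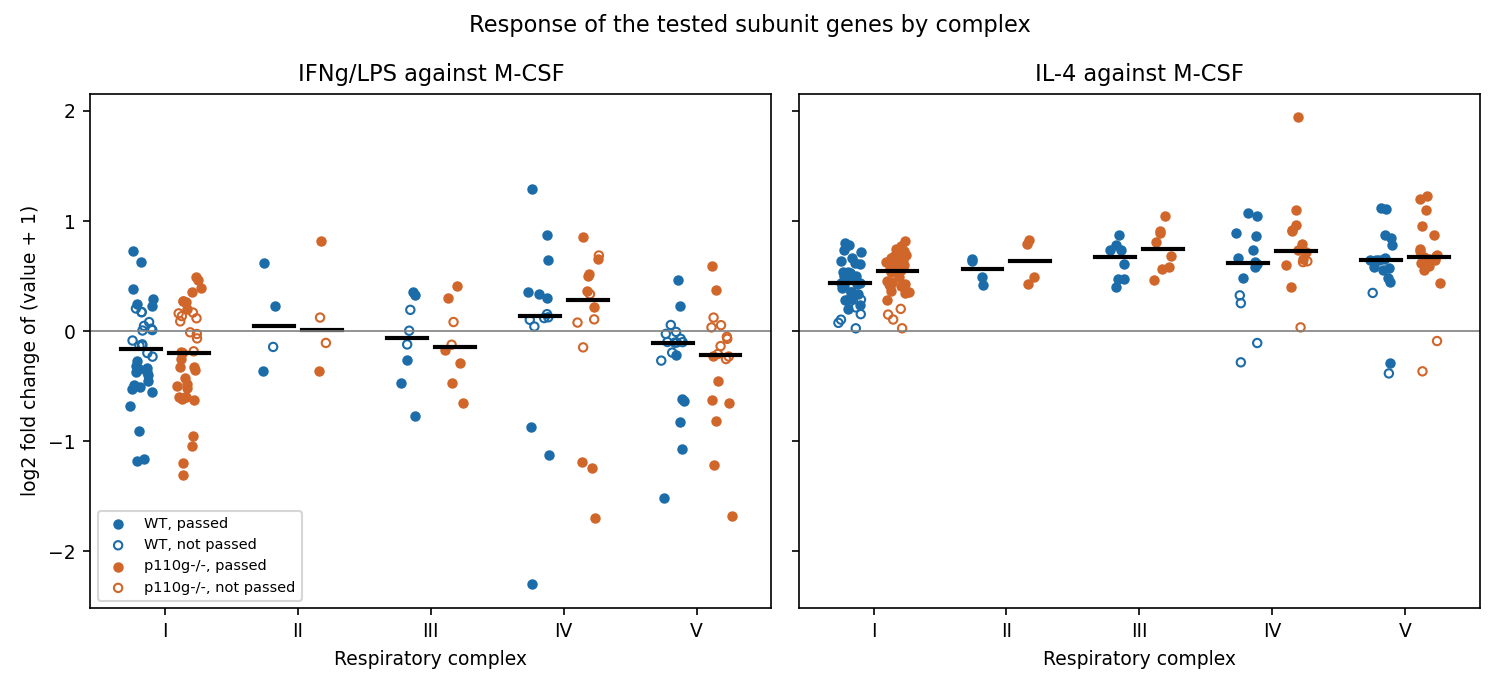
Log2 fold changes of (signal + 1) against M-CSF for the 80 tested genes (vertical axis), by complex (horizontal axis), in WT (blue) and p110g-/- (orange) cells, with filled points past an adjusted p of 0.05 and bars at medians. With IL-4 nearly all points lie above 0, and with IFNg/LPS each complex spreads to both sides; scaled to library totals instead, most IFNg/LPS points fall below 0, and the point of Cox6b2 rests on a few reads.

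IFNg with LPS split the same genes. In WT cells 18 of 80 were higher and 29 lower than in M-CSF, where 36.3% of all tested genes were higher and 37.5% lower, so the share of lower members (36.2%) was near the background and that of higher members (22.5%) was under it. In p110g-/- cells 19 were higher and 33 lower, against 36.2% and 36.8% of all genes. Medians were -0.17 in complex I, 0.044 in II, -0.059 in III, 0.14 in IV and -0.10 in V in WT, and -0.20 in complex I, 0.0075 in II, -0.15 in III, 0.28 in IV and -0.22 in V in p110g-/- cells. Of the genes called in WT, 14 of the 18 higher and 27 of the 29 lower were called the same way in p110g-/- cells, which is 73.7% and 81.8% of the p110g-/- calls. The overlap was not counted over all tested genes, so whether it is unusual was not tested. Direction here depended on scaling: with reads scaled to library totals, which shifts the median of all genes by -0.51 in WT and -0.41 in p110g-/- cells, 1 member was higher and 67 lower in WT (20% and 57.4% of all genes), and 3 and 61 in p110g-/- cells (22.3% and 53.3%). Members then had a median of -0.61 against -0.52 for all genes in WT. Unless stated otherwise, values use the authors' scaling. The 8 neutrophil markers summed to 6669.6 to 32169.7 in WT M-CSF and 2130.7 to 3278.5 in WT IFNg/LPS, the osteoclast markers to 34004.1 to 65317.5 and 7894.1 to 11434.9 in WT and to 62837.3 to 86335.7 and 7081.6 to 12879.1 in p110g-/- cells, and the macrophage markers were lower as well. The part of these in the result was not tested.

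Of 36 complex I genes, 16 (44.4%) were lower and 6 (16.7%) higher in WT, against 37.5% and 36.3% of all genes, and 18 (50%) and 8 (22.2%) in p110g-/- cells, against 36.8% and 36.2%. Of its 7 core subunits 4 fell in WT and 5 in p110g-/- cells, and none rose. Ndufs8, which carries 2 iron-sulfur clusters near the quinone site, had 1258.3, 1032.7 and 1191.8 in WT M-CSF and 403, 571.4 and 593.8 in WT IFNg/LPS libraries, and 1212.7, 1000.0 and 956.8 in M-CSF and 454.7, 487.9 and 431.7 with the stimulus in p110g-/- libraries. Its log2 fold changes were -1.17 (SE 0.14, adjusted p = 1.3e-06) and -1.20 (SE 0.14, adjusted p = 9.9e-07), with all IFNg/LPS libraries lowest. The accessory subunit Ndufb11 fell from 2519.7, 2447.2 and 2761.4 to 918.3, 1172.7 and 1351.9 in WT, or -1.18 (SE 0.10, adjusted p = 5.1e-08) on the log2 scale. Ndufb4, an accessory subunit named for its promoter after its values were seen, fell by 0.91 and 1.04. Ndufa6, another accessory subunit, had -0.68 and -0.60 in WT and p110g-/- cells. In the other direction, Ndufs4, an accessory subunit needed for a stable NADH module, rose from 1326.7, 1362.9 and 1352 to 2000.4, 2243.7 and 2462.1 in WT (0.73, SE 0.090, adjusted p = 2.3e-06) and by 0.39 (SE 0.090, adjusted p = 0.0011) in p110g-/- cells, where scaling to library totals gave -0.013. Ndufb9 and Ndufa11 rose by 0.63 and 0.38 in WT, and with scaling to library totals Ndufa11 turned to -0.13.

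Complex II genes did not move together. The succinate-oxidising Sdha fell, with 7443.7, 8447.1 and 8240.6 in WT IFNg/LPS against 10210.1, 10469.4 and 10390.7 in WT M-CSF libraries (log2 fold change -0.37, SE 0.063, adjusted p = 7.8e-05). The anchor Sdhd rose, with 7256.2, 8080.2 and 7833.2 against 4790.5, 5165.2 and 5127.7 (0.62, SE 0.066, adjusted p = 4.2e-07), and in p110g-/- cells with 8165.6, 8793.1 and 8250.0 against 4345.1, 4902.5 and 5082.3 (0.82, SE 0.066, adjusted p = 1.7e-08). In neither gene did the groups overlap. Sdhb, the iron-sulfur subunit beside Sdha, was higher in WT (0.23, SE 0.093, adjusted p = 0.034) with overlap, at 5205.6, 6628.3 and 7114.6 against 5453.4, 5312 and 5229.5, did not pass in p110g-/- cells (0.12, SE 0.093, adjusted p = 0.24), and turned to -0.27 in WT with scaling to library totals. The other anchor, Sdhc, had -0.14 (SE 0.069, adjusted p = 0.07) in WT and -0.11 (SE 0.069, adjusted p = 0.17) in p110g-/- cells, so that neither the catalytic pair nor the anchor pair had 1 direction. In complex III, 3 of 8 genes fell in WT and 4 in p110g-/- cells, against 37.5% and 36.8% of all genes. In each genotype 2 rose, against 36.3% and 36.2%. Uqcr11 had -0.78 and -0.65 and the core protein Uqcrc1 -0.48 and -0.47. Its partner core protein, Uqcrc2, rose in WT (0.33, SE 0.067, adjusted p = 0.00039) and turned to -0.18 with scaling to library totals.

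Complex IV had the highest median in both genotypes, which turned to -0.36 in WT and -0.11 in p110g-/- cells with scaling to library totals. Of 14 tested genes 6 were higher in each genotype, against 36.3% of all genes in WT and 36.2% in p110g-/- cells. In each genotype 3 were lower, against 37.5% and 36.8%, 1 of these being Cox6b2, which had few reads. Cox5a, an early-assembling subunit, held 4706, 4176.2 and 4221.7 in WT M-CSF and 6952.1, 8029.8 and 9079.2 in WT IFNg/LPS, and 4049.7, 3977.9 and 4447.6 in M-CSF and 6752.5, 7756.6 and 8043.4 with the stimulus in p110g-/- libraries, so that it rose by 0.87 (SE 0.091, adjusted p = 3.7e-07) and 0.85 (SE 0.091, adjusted p = 4.8e-07). Cox4i1, its assembly partner, moved the other way, from 10778.6, 11086.2 and 11199.3 to 4448.2, 6284.7 and 7740.0 in WT and from 10612.2, 11003.8 and 10920.0 to 4349.7, 4823.7 and 5140.4 in p110g-/- libraries. The 2 genes thus separated from M-CSF in opposite directions in both genotypes, with log2 fold changes for Cox4i1 of -0.88 (SE 0.13, adjusted p = 2e-05) and -1.19 (SE 0.13, adjusted p = 7.3e-07). Cox7a2l fell from 12966.4, 11869 and 12459.4 to 4607.7, 6374.3 and 6228.6 in WT (-1.13, SE 0.11, adjusted p = 1.5e-07), whereas Cox7a2, its paralogue within complex IV, rose by 0.64 (SE 0.068, adjusted p = 3.7e-07). Cox6a2 had 40.7, 31.5 and 20.6 in WT M-CSF and 50.2, 84 and 97.9 in WT IFNg/LPS (1.29, SE 0.37, adjusted p = 0.0055), and 13.8, 19.7 and 32.3 in M-CSF and 23.3, 38 and 43.9 with the stimulus in p110g-/- libraries (0.69, SE 0.37, adjusted p = 0.11). Cox6b2 was near the floor of 3 reads in IFNg/LPS, with 4.4, 1.9 and 0.0 in WT against 12.3, 12.2 and 9.7 in M-CSF, and no fold is given for it.

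In complex V, 2 of the 3 c ring genes fell in WT and all 3 in p110g-/- cells, against 37.5% and 36.8% of all genes. The catalytic beta subunit rose. Atp5g2 held 5361.2, 5568.9 and 5299.8 in WT M-CSF and 1302.1, 2010.2 and 2555.3 in WT IFNg/LPS, and 5062.4, 5188.8 and 5755 in M-CSF and 1481.7, 1778.7 and 1727.8 with the stimulus in p110g-/- libraries. Apart from Cox6b2, it had the lowest log2 fold change of all members with IFNg/LPS, -1.52 (SE 0.16, adjusted p = 3.8e-07) in WT and -1.68 (SE 0.16, adjusted p = 1.2e-07) in p110g-/- cells. Atp5g1 fell by 0.64 (SE 0.15, adjusted p = 0.0014) in WT, and Atp5g3, with 3624.4, 5330.5 and 6258.7, passed the test in p110g-/- cells (-0.46, SE 0.14, adjusted p = 0.0079) and not in WT (-0.20, SE 0.14, adjusted p = 0.22). The stalk gene Atp5h fell in both genotypes (-0.61 and -0.82). Atp5b rose from 21106 ± 1403 to 29237 ± 3338 in WT (0.47, SE 0.090, adjusted p = 0.00023) and by 0.59 (SE 0.090, adjusted p = 2.4e-05) in p110g-/- cells, and turned to -0.041 in WT with scaling to library totals. Its partner Atp5a1 did not pass (-0.0077, SE 0.079, adjusted p = 0.94 in WT). Atp5sl and Atp5s fell in both genotypes, with -1.07 (SE 0.098, adjusted p = 7.6e-08) for Atp5sl in WT.

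**Figure D3:**
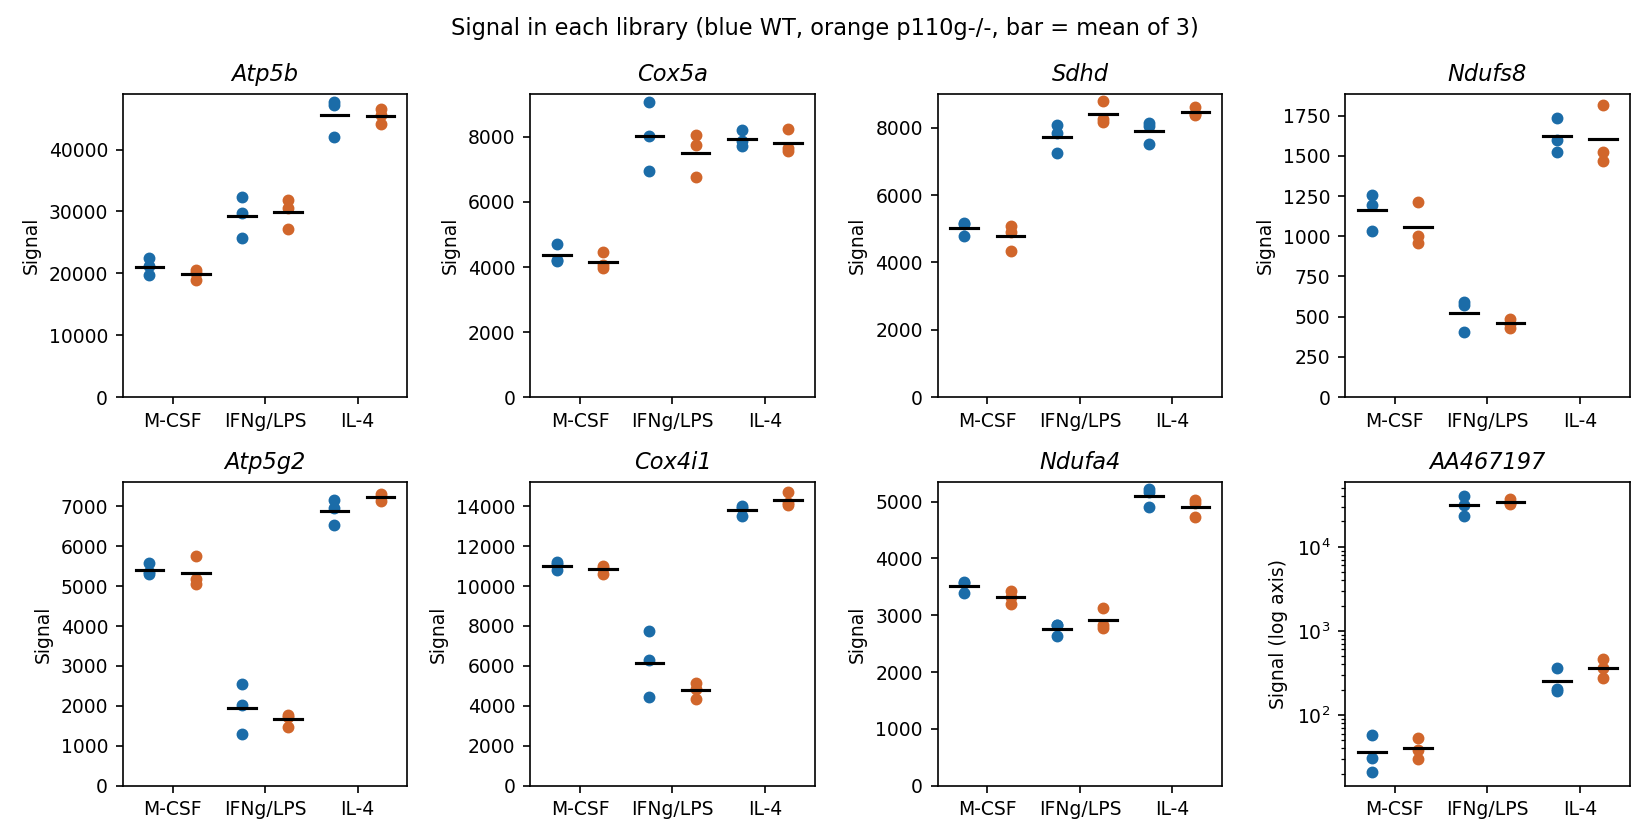
Signal in each of the 18 libraries (vertical axes, from 0 except the log axis of AA467197) for 7 subunit genes and the Ndufa4 paralogue AA467197, by stimulus, with bars at group means of 3. Atp5b, Cox5a and Sdhd are above M-CSF in both stimuli on the authors' scaling (Atp5b in WT IFNg/LPS falls just below 0 on the log2 scale with library totals), Ndufs8, Atp5g2 and Cox4i1 are lowest in IFNg/LPS, and AA467197 is highest in IFNg/LPS.

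Ndufa4 and its paralogue moved in opposite directions with IFNg/LPS. Ndufa4 signal was 3384.7, 3583.9 and 3568.9 in WT M-CSF and 2633.8, 2830.0 and 2834.8 in WT IFNg/LPS (-0.34, SE 0.057, adjusted p = 4.9e-05), and fell in p110g-/- cells too (-0.19, SE 0.057, adjusted p = 0.0068). AA467197, the mouse gene of NMES1 (human C15orf48), whose protein can take the place of NDUFA4 in complex IV in human cells, is outside the symbol rule. It had 58.4, 21 and 30.3 in WT M-CSF and 40435.4, 31413.3 and 22959.4 in WT IFNg/LPS, and 52.9, 29.5 and 38 in M-CSF and 33292.6, 37138.1 and 32644.1 with the stimulus in p110g-/- libraries. Log2 fold changes were 9.80 (SE 0.34, adjusted p = 1.3e-12) and 9.74 (SE 0.34, adjusted p = 1.3e-12). Per kilobase of exon, WT signal of AA467197 was 39.7 ± 21.1 against 5629 ± 178 for Ndufa4 in M-CSF, and 34276 ± 9479 against 4433 ± 184 in IFNg/LPS, so that the order of the pair reversed. With IL-4 both rose, Ndufa4 by 0.54 and 0.57 and AA467197 by 2.82 and 3.16 in WT and p110g-/- cells. The labels do not state whether counting used strand, so transcripts that overlap AA467197 cannot be told apart from it.

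Across both genotypes, the 6 IL-4 libraries were above all 12 others for 56 of the 81 genes (69.1%, against 12.6% of all tested genes), and the 6 IFNg/LPS libraries were below all 12 others for 23 (28.4%, against 24%). The first held for 15 of 18 genes of complex V, 6 of 8 of complex III, 25 of 36 of complex I, 8 of 15 of complex IV and 2 of 4 of complex II. The IL-4 libraries were above the M-CSF libraries alone for 70 genes (against 20.1%), and the IFNg/LPS libraries above M-CSF for 13 (against 30.2%). Compared directly, IL-4 was higher than IFNg/LPS for 69 of 80 genes and lower for 2 in WT (38.7% and 37.3% of all tested genes), the 2 being Ndufs4 (-0.33, SE 0.090, adjusted p = 0.0034) and Cox6a2 (-1.04, SE 0.37, adjusted p = 0.019). With scaling to library totals Ndufs4 turned to 0.098, and 78 members were higher and none lower (53.5% and 23.6% of all genes). In p110g-/- cells 74 were higher (against 37.9%) and none lower (against 37.6%), also at an unadjusted p under 0.05 and by edgeR and DESeq2. All 18 complex V genes were higher in IL-4 than in IFNg/LPS in both genotypes, with medians of 0.77 and 0.84. The IFNg/LPS and IL-4 responses of a genotype share their M-CSF libraries, so the pairs of responses are set side by side and not correlated. In WT, 20 genes fell with IFNg/LPS and rose with IL-4, 17 rose with both, and 29 rose with IL-4 without passing in IFNg/LPS. Such joint counts were not taken over all tested genes, so whether they are unusual was not tested.

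Other mitochondrial gene groups, from lists chosen with earlier results known, are given for WT. Their counts stand beside 36.3% higher and 37.5% lower with IFNg/LPS, and 22.9% higher and 21.1% lower with IL-4, over all tested genes. Of 18 complex IV assembly factors, 9 (50%) were higher and 6 (33.3%) lower with IFNg/LPS: the copper chaperone Sco1 rose by 3.14 (SE 0.16, adjusted p = 9.1e-11), Coa5 by 2.20 and the copper carrier Cox17 by 1.58, while Sco2, the paralogue of Sco1, fell by 1.66 and Lrpprc, which stabilises mitochondrial mRNAs, by 1.56. With IL-4, 9 of the 18 (50%) rose and 1 fell. Of 13 complex I assembly factors 3 (23.1%) rose and 5 (38.5%) fell with IFNg/LPS, the latter near the share of all genes, and 5 (38.5%) rose with IL-4. Among 13 genes of electron carriers and ubiquinone synthesis, Cycs, which encodes cytochrome c, rose from 2697.1, 2634.2 and 2459.4 to 10389, 10912.1 and 11394.4 with IFNg/LPS (2.07, SE 0.092, adjusted p = 1.9e-11) and by 1.11 with IL-4, and Etfb, of the electron transfer flavoprotein, fell by 1.74 with IFNg/LPS and rose by 0.88 with IL-4. Atpif1, the inhibitor of complex V, fell with IFNg/LPS (-1.58, SE 0.19, adjusted p = 1.7e-06) and had 0.34 (SE 0.19, adjusted p = 0.17) with IL-4.

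Of 13 TCA cycle genes 5 (38.5%) rose and 6 (46.2%) fell with IFNg/LPS in WT, near the 36.3% and 37.5% of all genes, and 11 (84.6%) rose and 1 fell with IL-4, against 22.9% and 21.1%. Mdh2, malate dehydrogenase, had 0.55 with IFNg/LPS, Idh3g, a subunit of isocitrate dehydrogenase, -1.44, and Fh1, fumarase, -1.71. All 15 tested glycolysis genes rose with IFNg/LPS (median 2.57), among them Pgk1 (3.48) and Gapdh (2.59), and 11 rose and 1 fell with IL-4 (median 0.71). Of 76 mitochondrial ribosomal protein genes 25 (32.9%) rose and 30 (39.5%) fell with IFNg/LPS, also near the shares of all genes, and 47 (61.8%) rose and 1 fell with IL-4. Of 12 regulators of mitochondrial gene expression, Ppargc1b, the coactivator PGC-1beta, rose by 2.88 (SE 0.23, adjusted p = 1.9e-07) with IL-4 and by 1.30 (SE 0.23, adjusted p = 0.00011) with IFNg/LPS, and Esrra, its nuclear receptor partner, by 0.32 and 1.03. Tfb2m, a mitochondrial transcription factor, rose with IL-4 (0.38) and fell with IFNg/LPS (-1.10). The regulators did not share a direction. Gabpb1 and Nrf1 also rose and Polrmt and Pprc1 also fell with IFNg/LPS, and Ppargc1a fell with IL-4.

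Few subunit genes passed the test between the genotypes within a stimulus. In M-CSF no member passed the limma test between the genotypes, where 1.06% of all genes were higher and 1.27% lower in p110g-/- cells. At an unadjusted p under 0.05 none was higher and 9 of 80 were lower, beside 13.2% of all genes in either direction, edgeR called none, and DESeq2 called 1 lower, beside 2.41% of all genes. The 3 p110g-/- libraries were all below the 3 WT libraries for 20 of 81 members and all above for 1, against 10.9% and 10.7% of all tested genes. Ndufc2, a membrane subunit of complex I, had 998.9, 1027.3 and 1055.6 against 1284.4, 1165.5 and 1350.9 (-0.30, SE 0.081, adjusted p = 0.068). A value that misses the threshold does not show that the genotypes were alike. In IL-4 no member passed either (1.34% of all genes higher and 1.99% lower), with 3 higher and 1 lower at an unadjusted p under 0.05 (15% of all genes in either direction), none by edgeR and 2 higher by DESeq2 (2.67% of all genes). There 13 members were above and 7 below without overlap, against 11.2% and 11.4% of all genes. Ndufb7 had 2617.9, 2460.3 and 2651.3 against 1960.4, 2047.9 and 1966.4 (0.37, SE 0.10, adjusted p = 0.066) and Ndufa13 3377, 3292.7 and 3810.7 against 4000.6, 4304.9 and 3978.6 (-0.23, SE 0.11, adjusted p = 0.33). In IFNg/LPS 10 of 80 were lower in p110g-/- cells (12.5%, against 7.79% of all genes) and none higher (against 6.94%). At an unadjusted p under 0.05, 2 were higher and 20 lower, beside 28.9% of all genes in either direction. By edgeR 11 were lower (against 7.19%) and by DESeq2 14 (against 9.29%), and neither called a member higher (against 6.83% and 8.32%). In the IFNg/LPS libraries the dendritic cell markers summed to 7766.8 to 9816.1 in WT and 17241.4 to 25749.3 in p110g-/- cells, and the neutrophil markers to 2130.7 to 3278.5 and 1041.3 to 1914.8, without overlap in either list, and their part in the result was not tested. The 10 were spread over complexes I (5), III (2), IV (1) and V (2), and were Ndufa8 (named after its value was seen), Ndufb7, Ndufb9, Ndufs4, Ndufv2, Uqcrb, Uqcrc2, Cox5b, Atp5f1 and Atp5j. Their log2 fold changes ran from -0.41 to -0.27.

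**Figure D4:**
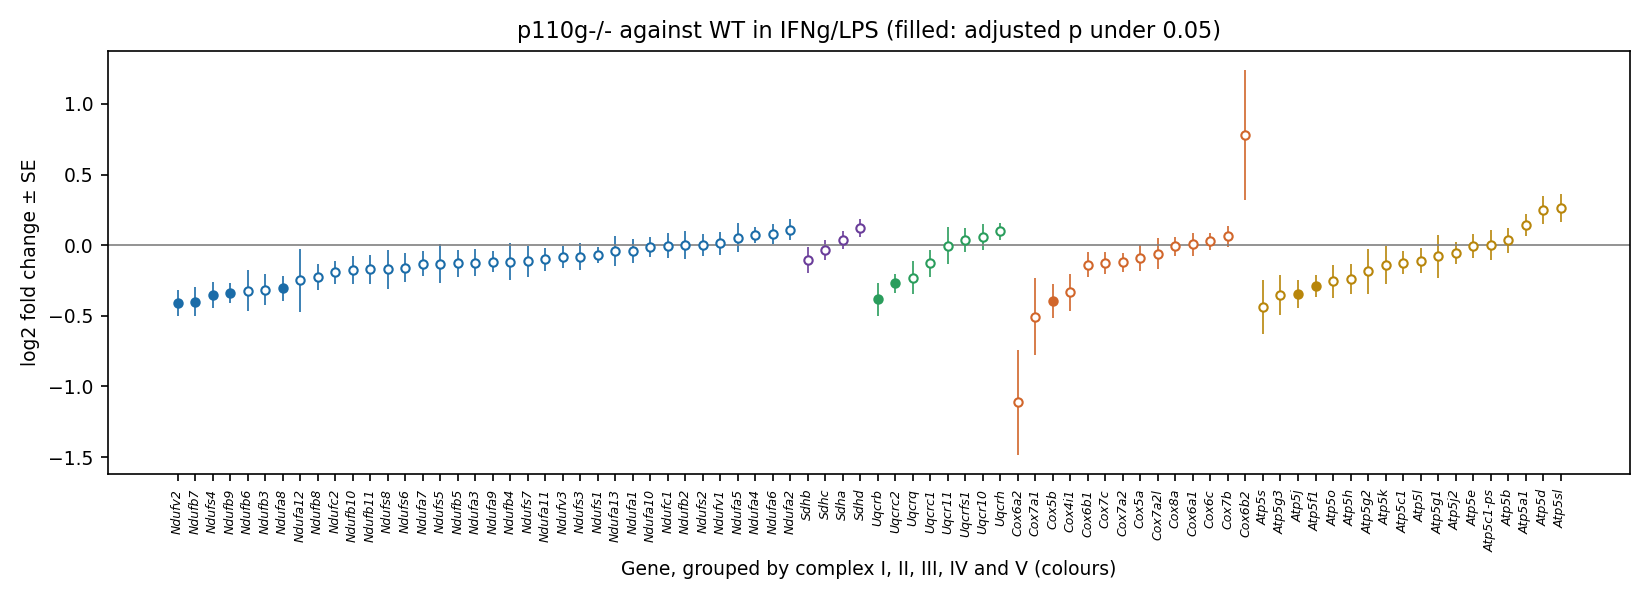
Log2 fold changes of p110g-/- against WT in IFNg/LPS with SE (vertical axis) for the 80 tested genes, ordered within complexes I to V (colours), with filled points past an adjusted p of 0.05. The 10 filled points lie between -0.41 and -0.27. With scaling to library totals 2 genes were lower and 2 higher (against 4.75% and 12.4% of all genes). The widest bars belong to the low-level genes Cox6a2 and Cox6b2.

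Ndufv2, a core subunit that carries an iron-sulfur cluster of complex I, had 2127.4, 2710.5 and 2880.6 in WT and 1898, 1754.1 and 2131.2 in p110g-/- IFNg/LPS libraries (-0.41, SE 0.090, adjusted p = 0.0067). Ndufb9 had 3095.9, 3523.8 and 3738.1 in WT and 2737.7, 2577.9 and 2858.2 in p110g-/- libraries (-0.34, SE 0.071, adjusted p = 0.0051), with all p110g-/- libraries below all WT libraries. Ndufv2 overlapped, because WT library 1 lay within the range of the p110g-/- libraries. The accessory subunit Ndufs4 was also below WT without overlap, with 1841.1, 1576.6 and 1825.2 against 2000.4, 2243.7 and 2462.1 (-0.35, SE 0.090, adjusted p = 0.015). In complex III Uqcrc2 had 4905.6, 4707.9 and 5339.2 against 5493.5, 6059.7 and 6467.1 (-0.27, SE 0.067, adjusted p = 0.014), in complex IV Cox5b 1224.7, 1150.4 and 1185.9 against 1201.7, 1658.2 and 1912.5 (-0.40, SE 0.12, adjusted p = 0.039), and in complex V Atp5f1, a stalk subunit, 6825.8, 8009.1 and 8172 against 8317.7, 10351.9 and 9505.6 (-0.29, SE 0.078, adjusted p = 0.021). Cox5b overlapped, and the other 2 did not. Separation of the 3 libraries was complete for 8 lower and 3 higher of the 81 genes, against 14.8% and 13.4% of all tested genes.

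The count depended on single libraries. In WT IFNg/LPS library 1 the 81 genes summed to 0.326% of the signal against 0.406 and 0.439% in libraries 2 and 3. Without that library 33 of 80 members were lower (against 10.1% of all genes). With libraries numbered 2 and 3 alone in every group 34 were lower (against 14.4%). None was lower when only the IFNg/LPS libraries were fitted (against 2.97%). Scaled to library totals, 2 were lower and 2 higher (against 4.75% and 12.4%). Without p110g-/- IFNg/LPS library 1, the library whose Pik3cg level goes against its label, 7 were lower (against 7.99%). Leaving out another library of this comparison gave 5 (without WT 2), 2 (without WT 3), 3 (without p110g-/- 2) and 9 (without p110g-/- 3). In the same order, 5.23%, 5.64%, 5.11% and 6.7% of all genes were lower. With the replicate number as a block, 13 were lower (against 9.73%).

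Whether the response to IFNg/LPS itself differed between genotypes was tested as an interaction, and Ndufb7 alone passed the limma test. That is 1 of 80 lower, against 1.42% of all genes, and none of 80 higher, against 1.02%. At an unadjusted p under 0.05, 4 were higher and 4 lower, beside 17.4% of all genes in either direction. Ndufb7 was also the 1 member called lower by edgeR (adjusted p = 0.044) and by DESeq2 (adjusted p = 0.0037), against 1.25% and 3.12% of all genes. Neither called a member higher, against 1.04% and 2.44%. Ndufb7, an accessory subunit of complex I, had 1685.4, 1675.7 and 1787.2 in WT M-CSF and 1071.8, 1325.8 and 1625.1 in WT IFNg/LPS, and 1869.1, 1937.6 and 2012.4 in M-CSF and 1053.7, 973.8 and 975.5 with the stimulus in p110g-/- libraries. Its log2 fold change was -0.38 in WT and -0.95 in p110g-/- cells, a difference of -0.58 (SE 0.15, adjusted p = 0.05, just under the threshold before rounding). The call was lost in 10 of the 12 fits that left out 1 library of these groups. It held without WT IFNg/LPS 1 (5 members lower, against 2.47% of all genes) and without p110g-/- IFNg/LPS 1. For the IL-4 response no interaction passed for any gene by limma or edgeR (0% of all genes in either direction). At an unadjusted p under 0.05, 2 members were higher and none lower, beside 7.4% of all genes in either direction. DESeq2 called no member, and 0.154% of all genes higher and 0.256% lower.

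**Figure D5:**
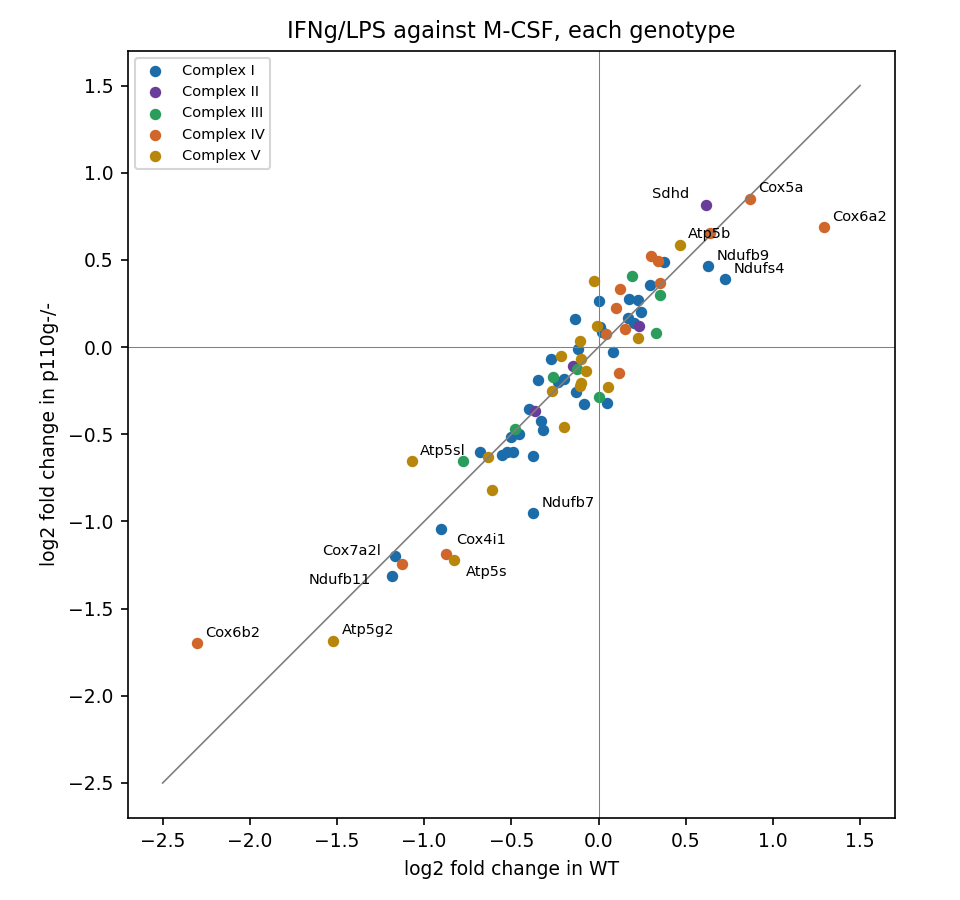
Log2 fold change with IFNg/LPS in WT (horizontal axis) and in p110g-/- cells (vertical axis) for the 80 tested genes, coloured by complex, with a line of equality. Points lie along the line, Ndufb7 falls below it (-0.38 and -0.95), and with scaling to library totals both axes shift by -0.51 and -0.41 at the median of all genes.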

How the data were processed

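Libraries were sequenced by the authors from total RNA. The deposited table gives signal per gene, whole read counts divided by 1 factor per library, with genome build mm9, Bowtie2, CASAVA 1.8.2 and DESeq named in the submitters' processing notes; counting and strand settings are not given in the sources used here. From the steps of low values, 100.0% of values under 100 reads came out whole within 0.1, and reads were recovered. Genes with signal of at least 10 in at least 3 libraries (15627 of 16474) were tested with limma 3.58.1 (R 4.3.3; trend and robust settings) on log2(signal + 1), so fold changes of low genes are understated, with 6 group means over 18 libraries and Benjamini-Hochberg adjustment over all tested genes at 0.05. Count tests on the recovered reads, edgeR 4.0.16 (quasi-likelihood) and DESeq2 1.42.0, called 18 and 19 members higher and 30 and 29 lower with IFNg/LPS in WT, and 64 and 68 higher with IL-4 in WT. Of all genes they called 35.8% and 36.3% higher and 37.7% and 36.9% lower with IFNg/LPS, and 21.8% and 24.6% higher with IL-4. The limma fit was tested on simulated data. Members and gene lists were chosen with earlier results of these data known.

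A rule set which genes could be named, of which some are left out: in each complex up to 3 passing members per direction with the smallest p, the 3 members with the largest change, core, catalytic and isoform genes, and up to 3 passing genes per direction of each pathway list; genes outside it are marked as chosen after their values were seen. The lowest correlation of deviations between same-numbered libraries was over 0.1 for IFNg/LPS and IL-4 in WT, IL-4 in p110g-/- cells, IL-4 against IFNg/LPS in WT and the genotypes in IFNg/LPS (lowest 0.162, 0.179, 0.187, 0.116 and 0.256). Same-numbered libraries may thus be paired there, a pairing read from the data and not from the labels. The main fits left this pairing out, and the replicate number was used as a block in an alternative only. Alternatives were other pseudocounts, filters, scalings, tools, the block, libraries 2 and 3 only, and leaving out each library. Promoters came from RefSeq tables on GRCm38.p6, and exon lengths from GENCODE; no coordinates of the files were used.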

Additional observations from a re-analysis of the deposited data

Results flagged for a closer look

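Ndufb7, an accessory subunit of complex I, was singled out because its response to IFNg/LPS differed between the genotypes in a test of that difference. Its log2 fold change was -0.38 in WT and -0.95 in p110g-/- cells, and the interaction was -0.58 (limma, adjusted p = 0.05, just under the threshold before rounding). It kept the call in 8 of 23 alternatives, with values from -0.78 to -0.43 and adjusted p from 0.002 to 0.13. All 3 p110g-/- IFNg/LPS libraries were below all 3 WT IFNg/LPS libraries, as for 14.8% of all tested genes. All 3 p110g-/- M-CSF libraries were above all 3 WT M-CSF libraries, as for 10.7%. These are the values that gave the interaction call. In IL-4 the 3 p110g-/- libraries were also above the 3 WT libraries, as for 11.2%.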

How the results depend on the processing

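The 470 values reported were recomputed under 29 settings, where they applied, which gave 8068 values. Of 6675 values of single genes, 6400 kept direction and call, 252 lost the call and 23 reversed, all of the latter with scaling to library totals, which was chosen after seeing the data. Every alternative was passed by 59 of 67 calls for IL-4 in WT and 67 of 71 in p110g-/- cells, by 25 of 47 and 30 of 52 for IFNg/LPS, by 61 of 71 and 67 of 74 for IL-4 against IFNg/LPS, and by 0 of 10 for the genotypes in IFNg/LPS. The cause of the changes was not tested. With scaling to library totals, the members called were 1 higher and 67 lower for IFNg/LPS against M-CSF in WT, 3 higher and 61 lower for IFNg/LPS against M-CSF in p110g-/-, 0 lower for IL-4 against IFNg/LPS in WT, 2 higher and 2 lower for p110g-/- against WT in IFNg/LPS, 0 lower for genotype by IFNg/LPS interaction. The shares of all genes were, in the same order, 20% and 57.4%, 22.3% and 53.3%, 23.6%, 12.4% and 4.75%, and 0.94%. With scaling to library totals, the median log2 fold changes by complex were -0.67 (I), -0.46 (II), -0.57 (III), -0.36 (IV) and -0.61 (V) for IFNg/LPS against M-CSF in WT, -0.60 (I), -0.39 (II), -0.55 (III), -0.11 (IV) and -0.62 (V) for IFNg/LPS against M-CSF in p110g-/-, 0.54 (IV) for IL-4 against M-CSF in WT, 0.92 (I), 0.84 (II), 1.10 (III), 0.98 (IV) and 1.20 (V) for IL-4 against IFNg/LPS in WT, 0.96 (I), 0.80 (II), 1.10 (III), 0.93 (IV) and 1.19 (V) for IL-4 against IFNg/LPS in p110g-/-, -0.028 (I), 0.093 (II) and -0.013 (IV) for p110g-/- against WT in IFNg/LPS, 0.068 (I), 0.12 (II), 0.12 (IV) and 0.076 (V) for genotype by IFNg/LPS interaction. With scaling to library totals, the genes that reversed had log2 fold changes of Ndufa10 -0.28, Ndufa11 -0.13, Ndufa9 -0.26, Ndufc1 -0.21, Sdhb -0.27, Uqcrc2 -0.18, Uqcrq -0.16, Cox6a1 -0.20, Cox7b -0.17, Cox8a -0.15, Atp5b -0.041 and Atp5f1 -0.28 for IFNg/LPS against M-CSF in WT, Ndufa10 -0.13, Ndufa5 -0.14, Ndufa9 -0.20, Ndufc1 -0.046, Ndufs4 -0.013, Ndufs6 -0.13, Uqcrq -0.10, Cox6c -0.18, Cox8a -0.033 and Atp5d -0.024 for IFNg/LPS against M-CSF in p110g-/-, Ndufs4 0.098 for IL-4 against IFNg/LPS in WT. With libraries numbered 2 and 3 only, the members called were 2 lower for IL-4 against M-CSF in WT, 34 lower for p110g-/- against WT in IFNg/LPS, 2 higher and 1 lower for p110g-/- against WT in IL-4, 7 lower for genotype by IFNg/LPS interaction. Of all genes, 23.7%, 14.4%, 6.44% and 8.56%, and 6.22% were called in the same order. With libraries numbered 2 and 3 only, the median log2 fold changes by complex were -0.069 (I), 0.13 (II) and 0.26 (IV) for IFNg/LPS against M-CSF in WT, 0.14 (IV) for IFNg/LPS against M-CSF in p110g-/-, 0.32 (II) and 0.45 (IV) for IL-4 against IFNg/LPS in WT, 0.36 (II) for IL-4 against IFNg/LPS in p110g-/-, -0.21 (I) for p110g-/- against WT in IFNg/LPS, -0.13 (I), -0.059 (IV) and -0.13 (V) for genotype by IFNg/LPS interaction. With only the libraries of the groups compared, the members called were 2 lower for IL-4 against M-CSF in WT, 0 lower for p110g-/- against WT in IFNg/LPS, 1 higher for p110g-/- against WT in IL-4, 0 lower for genotype by IFNg/LPS interaction. The matching shares of all genes were 22.5%, 2.97%, 1.16% and 0.853%. With a filter of 100 in 3 libraries, the members called were 1 lower for IL-4 against IFNg/LPS in WT (39.1% of all genes). With no filter, the members called were 1 lower for IL-4 against IFNg/LPS in p110g-/- (36.2% of all genes), 0 lower for genotype by IFNg/LPS interaction (1.31%). With DESeq2 on recovered reads, the members called were 1 lower for p110g-/- against WT in M-CSF (2.41% of all genes), 2 higher for p110g-/- against WT in IL-4 (2.67%). With the replicate number as a block, the members called were 1 lower for p110g-/- against WT in M-CSF (1.87% of all genes), 1 higher for p110g-/- against WT in IL-4 (1.98%). With a pseudocount of 10, the members called were 1 higher for p110g-/- against WT in IL-4 (1.58% of all genes). With limma without trend and robust settings, the members called were 0 lower for genotype by IFNg/LPS interaction (1.15% of all genes). With TMM scaling, the members called were 0 lower for genotype by IFNg/LPS interaction (1.27% of all genes). Leaving out each library in turn, calls ranged over 0 to 1 lower for IL-4 against M-CSF in WT, 1 to 3 lower for IL-4 against IFNg/LPS in WT, 0 to 1 higher and 2 to 33 lower for p110g-/- against WT in IFNg/LPS, 0 to 5 lower for genotype by IFNg/LPS interaction. Shares of all genes ranged, in the same order, over 17.3 to 20%, 35.5 to 36.3%, 4.26 to 8% and 5.11 to 10.1%, and 0.673 to 2.47%. Leaving out each library in turn, median log2 fold changes by complex ranged over -0.26 to -0.046 (I), -0.030 to 0.14 (II), -0.15 to 0.074 (III), 0.051 to 0.29 (IV) and -0.22 to 0.0052 (V) for IFNg/LPS against M-CSF in WT, 0.19 to 0.32 (IV) for IFNg/LPS against M-CSF in p110g-/-, 0.69 to 0.80 (IV) for IL-4 against M-CSF in p110g-/-, 0.37 to 0.60 (I), 0.31 to 0.48 (II), 0.45 to 0.61 (IV) and 0.67 to 0.83 (V) for IL-4 against IFNg/LPS in WT, -0.25 to -0.031 (I), -0.22 to 0.053 (III), -0.19 to -0.015 (IV) and -0.27 to -0.0035 (V) for p110g-/- against WT in IFNg/LPS, -0.15 to 0.071 (I), -0.12 to 0.099 (III), -0.046 to 0.073 (IV) and -0.21 to 0.088 (V) for genotype by IFNg/LPS interaction. Same-numbered libraries deviated together in 5 of the comparisons, and the block changed no other count of members by over 1.5 times. Depth limited Cox4i2 and Cox6b2, which were near the floor of 3 reads, and, to a lesser degree, Cox6a2 and Cox7a1, the other low members named.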

Other observations

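Genes that move ATP, ADP, phosphate and protons across the mitochondrial membranes supply complex V and carry off its product. Of 7 tested, 2 rose and 3 fell with IFNg/LPS in WT cells, near the 36.3% and 37.5% of all genes, and 5 rose and none fell with IL-4, against 22.9% and 21.1% (limma, adjusted p under 0.05). Slc25a5, an ATP and ADP carrier, had 11052.8, 10936.8 and 10033.5 in WT M-CSF and 24897.9, 25777 and 25707.9 in WT IL-4 libraries, with log2 fold changes of 1.26 in WT and 1.11 in p110g-/- cells. Ucp2, an inner membrane carrier, had 43138.8, 42232.1 and 43830.7 in WT M-CSF and 13666.5, 14702 and 17168.3 in WT IFNg/LPS libraries, with log2 fold changes of -1.51 and -1.65. The groups did not overlap in either case.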
